A study of Rattus norvegicus with 6 samples.

Results

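Among the piRNA probes of an array hybridised with rat islet RNA, 36 combined a bright signal in adult islets with a much dimmer mean in islets of 10-day-old pups. They were taken from 39526 piRNA probes that carried no outlier mark on any array, out of 39727 piRNA probes in all. A level here is the log2 processed signal minus the 75th percentile of the piRNA probes that were well above background on all 6 arrays, so it states brightness relative to the rest of an array. The members were chosen by their measured levels, as the probes with an adult mean level over 7 and an adult minus P10 difference over 2, which is more than 4-fold. Both conditions use the measured values, so the size and direction of that difference are described and carry no test of the set.

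Islets came from Rattus norvegicus of 10 days (P10) and of 3 months (Adult). Each of the 3 P10 samples pooled 2 pups, whereas the 3 adult samples were single animals, and the labels give no strain, sex or treatment. Total RNA was tagged with Cy3 by RNA ligase at the 3′ end, and each sample had a 1-colour array of its own. All 3 P10 arrays and Adult 1 lay on slide 1, and Adult 2 and Adult 3 lay on slide 2, as read from shared scan identifiers. Of 25 marker genes listed for islet, acinar, duct, vessel, stromal, immune and blood cells, 0 had a matched probe, so the tissue label and the make-up of the preparations could not be checked here. In such bulk samples fewer cells of a type and less RNA per cell cannot be told apart.

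PIWI-interacting RNAs (piRNAs) are small RNAs that are bound by PIWI proteins, and they are best known from the germline, where they guide the silencing of transposable elements. In the mouse testis most are cut from long precursor transcripts of defined genomic clusters, so that many different piRNAs can share a precursor. Islets are the endocrine clusters of the pancreas, and the insulin-secreting beta cells of rodents mature in the weeks after birth. The probes are named by the database entry of the piRNA they were designed for (DQ and a number). Sequences and genomic positions of these entries were not analysed here, so no base, chromosome or gene is stated for them, and a probe reads any labelled RNA that binds to it.

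The adult minus P10 difference of the 36 members ran from 2.00 to 6.01 on the log2 scale with a median of 4.49, against a median of -0.04 over all tested piRNA probes. Of 11900 tested probes 11766 had a value on all 6 arrays. Medians and SDs over all tested probes, and the shares of the order of the adult arrays and of the 2 SDs, are over these 11766, and the other shares are over the 11900. In folds this range was 4.01 to 64.4. All 36 were well above background on all 6 arrays, so none of the differences rests on an undetected spot. The dimmest member spot on any array had a processed signal of 147, on P10 2, where the median local background of the array was 21. No spot of any array was saturated.

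The members' levels by array did not follow age alone. Over the 36 members, the median level was 3.07 on P10 2 and 3.98 on P10 3. On P10 1 it was 9.02. The adult medians were 10.41 on Adult 1, 9.94 on Adult 2 and 9.45 on Adult 3. P10 1 thus lay near the adult arrays, and the low P10 means came from P10 2 and P10 3.

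The same split appeared in the light the members gave. The 36 probes gave 1.15% of the summed piRNA signal on P10 2 and 2.67% on P10 3. On P10 1 they gave 24.4%. On the adult arrays their shares were 32.3%, 33.4% and 31.5% for Adult 1, Adult 2 and Adult 3. These are shares of brightness and not of RNA molecules, since probes differ in how well they bind. The other 90 piRNA probes with an adult mean over 7 gave between 54.2% and 80.9% of the signal of an array, with the highest share on P10 2.

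Described as gained after P10, the set was therefore low in 2 of the 3 P10 samples and already near the adult level in the remaining one. P10 1 lay above the other P10 arrays in each of the 36 members, against 32.4% of all tested probes. It lay over 2 above both other P10 arrays in all 36, against 2.29% of all tested probes. Among the 558 tested probes with 6 values and an adult minus P10 difference over 2, bright or dim and with the members included, these shares were 94.4% and 33.2%. A P10 1 above the other P10 arrays was thus common among all probes with such a difference. The excess of P10 1 over the mean of P10 2 and P10 3 ran from 2.18 to 6.78 with a median of 5.17, or from 4.52-fold to 110-fold. Over all tested probes the median of that excess was -0.10, and over the other 90 bright probes it was 0.24. The order of arrays within an age was not part of the rule, but the P10 mean was, and the 2 are not independent.

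On the scaled levels, P10 1 did not reach the adult mean in 35 of the members. That count depends on the scaling, since P10 1 had the highest 75th percentile of processed signal, at 175. On Adult 1, Adult 2 and Adult 3 it was 139, 108 and 101, so scaling lowered P10 1 relative to the adult arrays. The adult mean minus P10 1 had a median of 0.74, with a range from -0.83 to 2.71. Against P10 2 and P10 3 alone, the adult mean was higher by 3.02 to 8.08, with a median of 6.41. Pairs of arrays showed this directly. The median absolute gap over the members was 5.71 between P10 1 and P10 2 and 4.94 between P10 1 and P10 3, whereas it was 1.05 between P10 1 and Adult 1. Between P10 2 and P10 3 it was 0.86, and between Adult 2 and Adult 3 it was 0.35. Over all tested probes the gap between P10 1 and P10 2 was 0.60 and that between P10 1 and Adult 1 was 0.44, so the wide gap inside P10 was not a feature of all probes on P10 1.

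The difference was largest for DQ621930, at 6.01 ± 1.54 on the log2 scale (SE from limma's fit over all probes, n = 3 arrays per age). Its levels were 8.16, 2.09 and 1.80 on P10 1, P10 2 and P10 3, and 10.23, 10.09 and 9.75 on Adult 1, Adult 2 and Adult 3. In processed signal this was 49903, 407 and 488 at P10 and 167529, 118403 and 86782 in adults. The ages did not overlap, and P10 1 lay 1.87 below the adult mean while the mean of the other P10 arrays lay 8.08 below it. DQ621929, the entry just before it, differed by 5.70 ± 1.69 (SE). It stood at 9.45, 2.31 and 3.03 at P10 and at 11.03, 10.84 and 10.04 in adults, with the same high P10 1.

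For DQ736313 the 3 P10 levels were 8.28, 2.22 and 2.72, and the adult levels were 9.98, 9.94 and 9.47. The difference was 5.39 ± 1.45 (SE). P10 1 again lay nearer the adult arrays than the other pups' arrays. DQ608895 had the widest clear space between the ages, as its highest P10 array, P10 1 at 5.42, lay 2.38 below its lowest adult array. Its other P10 levels were 1.28 and 1.64, and its adult levels were 7.79, 8.60 and 7.97. Its difference was 5.35 ± 1.02 (SE), and P10 1 lay 2.71 below the adult mean, the widest such gap among the 36.

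DQ604021 was the dimmest member in adults, with levels of 6.84, 7.77 and 7.43 and an adult mean of 7.35. On the P10 arrays it read 5.44, 0.62 and 0.45, so that P10 2 and P10 3 were less than 1 above the 75th percentile of their arrays. Its difference was 5.18 ± 1.24 (SE). DQ627312 read 7.21, 1.49 and 2.31 at P10 and 9.14, 8.98 and 8.55 in adults. DQ736398 read 8.52, 2.33 and 3.07 at P10 and 10.21, 9.63 and 9.20 in adults. In all of these the ages did not overlap, and P10 1 was the array closest to the adults.

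DQ624281 stood at 8.82, 2.01 and 3.50 at P10 and at 10.38, 9.71 and 9.30 in adults. DQ618195 gave 8.20, 1.91 and 2.46 at P10 against 9.90, 9.21 and 8.43 in adults, so that Adult 3 was only 0.22 above P10 1. DQ735636 gave 7.69, 1.90 and 2.05 against 9.18, 8.92 and 8.41. With these the list of the 10 largest differences is complete, and the smallest of the 10 was 4.95. In each of the 10 all adult arrays lay above all P10 arrays, against 16.8% of all tested probes. The same held in 525 of the 558 probes with a difference over 2. Ranking by the difference favours this order, so nothing is read from it.

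Altogether 24 members differed by over 4, with a median difference of 4.84. In these P10 2 ranged from 0.62 to 4.58, P10 3 from 0.45 to 5.91 and P10 1 from 5.42 to 11.20. The adult means of the 24 were between 7.35 and 11.65. The lowest P10 1 level thus lay below the lowest adult mean, while the ranges overlapped. These ranges run over different probes and do not compare P10 1 with the adults probe by probe.

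Several members with a difference over 4 were also among the brightest in adults. DQ738259 read 11.20, 4.01 and 5.08 at P10 and 11.50, 11.78 and 11.68 in adults, a difference of 4.89 ± 1.66 (SE). Its processed signal was 413035 on P10 1 and between 330528 and 403036 on the adult arrays, so that the unscaled order of P10 1 and the adults was the reverse of the scaled one. On P10 2 it was 1539 and on P10 3 it was 4747. DQ749810 read 10.73, 3.88 and 4.75 at P10 and 11.32, 11.06 and 10.82 in adults, with P10 1 only 0.10 below its lowest adult array. DQ747310 read 10.40, 3.24 and 4.61 at P10 against 11.22, 10.39 and 10.03, and here P10 1 lay above Adult 2 and Adult 3.

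The members left unnamed by rank had the same order of arrays. DQ764199 read 8.29, 2.20 and 3.11 at P10 against 10.00, 9.25 and 8.86 in adults. DQ735055 read 9.21, 2.64 and 3.66 against 10.49, 9.94 and 9.60. DQ732620 read 10.18, 3.45 and 4.37 against 10.79, 10.80 and 10.40. P10 1 was at most 1.08 below the adult mean in these, and P10 2 was more than 6 below it.

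DQ615134 read 7.97, 2.68 and 3.19 at P10 against 9.36, 9.19 and 8.88 in adults. DQ766774 read 9.89, 3.19 and 4.17 against 10.92, 9.97 and 9.90, with 0.01 between P10 1 and its lowest adult array. DQ621772 read 9.34, 2.94 and 3.79 against 10.44, 9.85 and 9.17, and there P10 1 lay above Adult 3. DQ615583, which differed by 3.21, is the last of them and read 10.35, 5.84 and 6.89 against 10.71, 11.04 and 10.98.

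A difference between 3 and 4 was found in 6 members. DQ612687 read 10.52, 5.56 and 6.49 at P10 and 10.91, 11.09 and 11.18 in adults, a difference of 3.54 ± 1.14 (SE). DQ614956 read 11.12, 6.14 and 7.29 against 11.35, 11.62 and 11.59. DQ627808 read 11.36, 6.52 and 8.22 against 11.56, 11.96 and 11.64. In these 6, unlike in most of the 24 above, Adult 1 was the lowest adult array. DQ754829, dimmer in adults than the other 5, read 6.94, 2.46 and 3.20 against 7.45, 8.56 and 7.84.

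The remaining 6 members differed by 2 to 3, and in them P10 2 and P10 3 were themselves bright, between 4.21 and 8.96. DQ609222, with the highest adult mean of the members at 11.86 ± 0.20 (SD, n = 3), read 11.38, 8.03 and 8.96 at P10 against 11.63, 12.01 and 11.93 in adults. DQ760315 read 11.32, 7.37 and 8.12 at P10 against 11.52, 11.92 and 11.66. DQ746475 read 7.61, 4.21 and 4.31 against 8.33, 8.80 and 7.77. The ages stayed apart in all of these, with P10 1 between 0.16 and 0.25 below the lowest adult array.

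DQ748380 was close to DQ746475 on every array, with 7.63, 4.43 and 4.46 at P10 and 8.42, 8.62 and 7.80 in adults. DQ763643 had the smallest spread at P10, with levels of 8.02, 5.88 and 5.82 and an SD of 1.26, against 9.08, 9.07 and 8.46 in adults. DQ729660 was the only member whose P10 1 value exceeded the adult mean on the scaled levels. It read 11.35, 6.95 and 7.24 at P10 and 11.69, 10.42 and 9.43 in adults, so that its adult arrays differed by over 2 among themselves and its ages overlapped.

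Few probes lay close to the thresholds. DQ729660, at 2.00, was the member just inside the limit on the difference, followed by DQ763643 at 2.29, DQ609222 at 2.40 and DQ760315 at 2.76. Just outside it, with an adult mean over 7, lay DQ618493 at 1.63, DQ602030 at 1.14 and DQ615663 at 1.12. DQ618493 had the members' order of arrays in a milder form, with 11.41, 9.53 and 9.71 at P10 against 11.56, 11.99 and 11.99, while DQ602030 read 7.84, 7.54 and 7.10 at P10.

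On the side of brightness, DQ604021 at an adult mean of 7.35, DQ754829 at 7.95, DQ740230 at 8.04 and DQ608895 at 8.12 were just inside. DQ740230 read 6.35, 1.85 and 1.78 at P10 and 7.81, 8.41 and 7.88 in adults. Just outside lay DQ755559, DQ608420 and DQ620900, at 6.99, 6.69 and 6.55, with differences of 2.41, 3.27 and 4.68. In these 3 as well P10 1 lay above P10 2 and P10 3, at 5.71, 5.03 and 4.16.

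Seen over all 126 bright probes, the differences were unevenly spread. There were 3 probes below -1, 79 between -1 and 1, 8 between 1 and 2, 12 between 2 and 4 and 24 above 4. Members were therefore 28.6% of the bright probes, whereas a difference over 2 was found in 4.77% of all tested probes. Bright probes are defined by their adult mean, which favours probes higher in adults, so nothing is read from these shares. Within P10, 37 of the 126 had P10 1 over 2 above both other arrays, and 36 of these were the members. The other one was DQ735332, at 9.02, 6.55 and 6.39 at P10 and 8.93, 8.02 and 7.01 in adults, a difference of 0.67, named after its values were seen.

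Outside the bright probes the P10 1 pattern was found in more probes. Over all 11900 tested probes, 272 had P10 1 over 2 above both other P10 arrays, and the members were 13.2% of these. Of the 272, 189 also had an adult minus P10 difference over 2. Among 78 tested probes for transcripts, miRNAs and custom sequences on the same arrays, 4 had such a P10 1 value.

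The members were far less even within P10 than within the adults. Their SD over the P10 arrays ran from 1.26 to 3.93 with a median of 3.03, against a median of 0.39 in the other 90 bright probes and 0.45 over all tested probes. For the adult arrays the median SD was 0.37 in the members, 0.35 in the other bright probes and 0.38 over all tested probes. The P10 SD exceeded the adult SD in all 36 members, against 53.3% of the other bright probes and 56.9% of all tested probes. Among the 558 probes with a difference over 2 that share was 86.9%, and their median P10 SD was 1.11. Probes printed as 10 spots per array, which are not piRNA probes, had a median SD between spots of 0.10. That is a spread within an array and leaves out differences between samples, labelling and hybridisation. The median P10 SDs of the other bright probes and of all tested probes exceeded it as well. With 3 arrays per age no exact permutation test could reach the usual threshold, and none is given.

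P10 2 and P10 3 were close to each other but not equal. In 32 members P10 2 was the lowest of the 3, against 27.8% of all tested probes and 66.8% of the 558 with a difference over 2. The value of P10 3 minus P10 2 ran from -0.29 to 1.70 with a median of 0.86. Over the other bright probes the same median was -0.34. The 4 members in which P10 3 was the lower of them, chosen after their values were seen, were DQ621930, DQ604021, DQ740230 and DQ763643.

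Among the adult arrays, Adult 2 lay above Adult 3 in 32 of the 36 members, against 63.3% of the other bright probes and 46.1% of all tested probes. Adult 1, the adult array that shared slide 1 with the P10 arrays, was the highest in 21 members (58.3%) and the lowest in 12. It was the highest in 62.2% of the other bright probes and 40.3% of all tested probes. The lowest it was in 20 of those 90 and in 4951 of those 11766. By size of difference, Adult 1 was the highest in 19 of the 24 members with a difference over 4 and in 0 of the 6 between 3 and 4. The adult SD was smallest for DQ609221, at 0.08, and largest for DQ729660, at 1.13.

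Within slide 1, Adult 1 exceeded all 3 P10 arrays in all 36 members, against 27.9% of all tested probes, a direction that the rule favours. Adult 1 minus the P10 mean ran from 2.18 to 6.21, with a median of 4.77, and the mean of Adult 2 and Adult 3 minus the P10 mean had a median of 4.19. In the 6 members with a difference between 3 and 4 these medians were 3.21 and 3.49. Slide 1 held 1 adult array against 3 P10 arrays and slide 2 held no P10 array. Slide and age therefore cannot be told apart for Adult 2 and Adult 3. Adult 1 minus P10 1 alone was 0.20 to 2.38 with a median of 1.05, and the corresponding median was 0.14 in the other bright probes. Part of that distance depends on how the arrays were scaled, since P10 1 had the highest 75th percentile of processed signal, at 175, against 95.7 to 140 on the others.

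The ages did not overlap in 32 members, against 16.8% of all tested probes, as the rule on the difference favours. Of the 558 probes with a difference over 2, members included, 525 had no overlap, so this was common among such probes. In the members the clear space was narrow, with a median of 0.37 between the lowest adult and the highest P10 array. The 4 members with an overlap, named after their values were seen, were DQ621772, DQ623541, DQ729660 and DQ747310, and in each it was P10 1 that reached into the adult range. The count was 30 with the 75th percentile of all piRNA probes, 32 with the median as scale, 34 with quantile normalization, 35 with cyclic loess and 33 in the deposited value table, where the shares of all probes tested in that setting were 17.5%, 17.9%, 16.5%, 16.8% and 17.3%. It was 26 on the uncorrected signal (13.7% of all tested probes), 8 without scaling between arrays (9.74%) and 2 with normexp background correction (10.5%). Among probes detected on at least 1 array the share was 12.6% beside the same 32 members. Without P10 1, all 36 had no overlap, against 22.5% of all tested probes, and without both arrays numbered 1 there were again 36, against 30.5%.

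In the numbering of the entries, 8 members formed 4 pairs of consecutive numbers, and all lay in the block of entries whose numbers start with DQ6. DQ621929 and DQ621930 are given above. DQ623541 read 10.93, 4.20 and 5.24 at P10 and 11.41, 10.98 and 10.86 in adults, and DQ623542 read 11.11, 4.58 and 5.91 against 11.46, 11.15 and 11.16. DQ623601 read 7.39, 2.11 and 2.99 against 9.12, 8.03 and 8.13, and DQ623602 read 7.09, 1.39 and 2.74 against 8.71, 8.04 and 7.84. Within these 3 pairs the differences of the partners lay within 0.31 of each other. Neighbouring entries may share sequence, which was not tested, and partners are then not separate measurements.

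The fourth pair was less alike. DQ609221 read 10.72, 5.54 and 6.63 at P10 and 11.04, 11.17 and 11.19 in adults, a difference of 3.50 ± 1.18 (SE). DQ609222, given above, differed by 2.40 ± 0.78 (SE), and the partners' centred levels parted by up to 1.21 on an array. DQ609220 and DQ609223, on either side, were dim in adults, at -3.58 and -6.59. So were DQ621931 beside DQ621930, at -6.48, and DQ623543 beside DQ623542, at -6.52.

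Most entries beside a member did not share its profile. Of the 36 members, 29 had an entry with the next lower or higher number on the array. This gave 38 neighbouring probes that were no members, of which 8 were well above background on all 6 arrays. Their differences ran from -0.12 to 3.93 with a median of 0.48. DQ621928, beside DQ621929, had the largest, from a P10 mean of 0.91 to an adult mean of 4.84. DQ623540, beside DQ623541, was bright at both ages, with an adult mean of 7.65 and a difference of 0.66. On P10 2 and P10 3 DQ623540 read 7.43 and 6.97, where DQ623541 read 4.20 and 5.24, and so the low values of the member were not shared by the entry next to it.

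By number, 19 members were DQ6 entries and 17 were DQ7 entries, where 38.2% of the piRNA probes on the array are DQ6 entries. Of all 126 bright probes, 90 were DQ6 entries. The medians of the difference were 4.45 in the DQ6 members and 4.61 in the DQ7 members, and those of the P10 1 excess were 5.03 and 5.71. The profile was therefore found on both sides of the numbering with sizes that differed less than the members within a side.

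On the array surface the members were scattered. No 2 of them lay within 133 micrometres of each other, the radius that takes in the directly adjoining spots. The 355 unmarked piRNA spots within that radius of a member had a median adult minus P10 difference of 0.24, against 0.17 over all unmarked piRNA probes. Their median excess of P10 1 over P10 2 and P10 3 was -0.22, against -0.43. Of the 355, only 120 were among the tested probes, so most were not steadily above background. The median difference of these 120 was -0.09, against -0.04 over all tested probes. By these medians the spots around the members did not carry the members' difference. Local defects at single members were not tested.

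In limma's fit over all 11900 tested probes, 1 of the 36 members passed the Benjamini-Hochberg threshold of 0.05, against 4.17% of all tested probes called higher in adult. It was DQ608895 (limma adjusted p = 0.0427). The adjusted p of the 36 ran up to 0.298, and 35 had an unadjusted p below 0.05, against 13.8% of all tested probes that were also higher in adult. The rule used this contrast, so nothing is read from these counts. The SE of a member's difference was between 0.61 and 1.69, as the spread at P10 enters it.

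The call of DQ608895 was kept without P10 1 or Adult 1 and lost without any one of the other 4 arrays (limma adjusted p from 0.0989 to 0.168). Without P10 1 the fit called 36 members and 8.66% of all tested probes as higher in adult, and nothing is read from that count either, since the rule used the contrast. The members' median difference was then 6.41. Without P10 2 or P10 3, 0 members and 0% of all tested probes were called higher, and the medians were 3.26 and 3.75. In limma 19 and 17 members then had an unadjusted p below 0.05, beside 2760 of 11890 and 2276 of 11896 tested probes in either direction. Without Adult 1 there were 2 calls, against 7.47% of all tested probes, and without Adult 2 or Adult 3 there were 0, against 0%. Without Adult 2 or Adult 3, 31 and 33 members had an unadjusted limma p below 0.05, beside 2234 and 2160 of 11900 tested probes in either direction. With the slide as a block 0 were called, against 0.0084% of all tested probes, at a median difference of 4.77 (limma adjusted p from 0.421 to 0.564). There 16 members had an unadjusted limma p below 0.05, beside 1351 of 11900 tested probes in either direction. The rule used the contrast, so nothing is read from these counts. Other settings called 5 members with the 75th percentile of all piRNA probes (5.55% of the probes tested there), 3 with normexp (0.185%) and 6 in the deposited value table (5.6%). They called 3 among probes detected on all 6 arrays (4.81%), 35 with array weights (15.6%) and 36 without both arrays numbered 1 (12.6%). All differences stayed positive in every one of these fits.

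The authors' deposited table of piRNAs that changed lists 11 of the 36 members, all as higher in adult, against 5.7% of the probes in the deposited value table. It required an unadjusted p of at most 0.05, and its folds for these 11 in the authors' deposited table ran from 3.43 for DQ763643 to 51.8 for DQ621930. It rests on the same arrays and is no separate evidence. In the deposited value table, where all 36 have a row, the members' difference had a median of 4.18 and ran from 1.60 to 5.69. DQ621929, which differed by 5.70, is among the 25 members that the authors' deposited table does not list.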

How the data were processed

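The members, lists and tests were chosen with earlier results of these data known. Per the file headers, the spot intensities behind the levels come from Agilent Feature Extraction (11.0.1.1), background-subtracted and not normalized between arrays. The authors' deposited value table is separate and holds log2 normalized intensities. Per the file headers, the authors' comparison table holds log2 values, an unadjusted p-value from an unpaired t-test and a fold as a ratio of group means; no source used here names the normalization software. Flags deposited with the spots mark outliers and signals well above background.

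Between 27.6% and 36.7% of the 39727 piRNA probes were well above background on an array. Levels were scaled as described above, and marked spots were left out. A probe entered the fit where all 3 arrays of either age had it well above background. The fit was made with limma 3.58.1 in R 4.3.3 (adult minus P10, two-sided, Benjamini-Hochberg over 11900 probes), a fit also tested on simulated data. The mean signal column that normexp (offset 50) would take was not in the files, so the median signal was used. The number of arrays limits the precision. Replicate numbers were tried as a block.

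Members were named by rank. The rule takes the 10 largest differences, the 10 highest adult means, the 6 lowest and 4 highest P10 SDs, the 4 members nearest each threshold and the consecutive entries, which makes 29 members, plus the 3 probes just outside each threshold and the neighbours of the consecutive entries. Levels of different probes are brightness and are not compared as amounts.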

Additional observations from a re-analysis of the deposited data

How the results depend on the processing

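All 36 members stayed higher in adult under each alternative, with differences between 1.22 and 8.08. Applied again with its thresholds kept, the rule found 29 to 38 probes. The number also depends on the thresholds. A lower limit on the adult mean would take in more probes, such as DQ755559 at 6.99, DQ608420 at 6.69 and DQ620900 at 6.55. The median difference stayed within 2.16 of its main value under all alternatives that kept the thresholds. That limit is the members' median SD pooled over both ages, and the wide P10 spread enters it. It therefore counts as unchanged the shifted medians without single P10 arrays that are given above. The numbers of calls moved, for causes that were not tested. Members called were 5 with the 75th percentile of all piRNA probes (5.55% of the probes tested there), 2 with quantile normalization (4.61%) and 3 with normexp (0.185%). They were 5 with the uncorrected signal (4.45%) and 6 with the authors' deposited value table (5.6%). They were 3 with probes detected on all 6 arrays (4.81%), 35 with array weights (15.6%) and 36 without both arrays numbered 1 (12.6%). With cyclic loess, probes detected on at least 1 array, the replicate block and no scaling they were 0 (0% in each). With the slide as a block they were also 0 (0.0084%). With 1 array left out they ranged from 0 to 36, and the shares from 0% to 8.66%. The rule used the contrast, so nothing is read from these counts.

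Of all tested probes, 496 were called higher and 207 lower in adult. These were 328 and 118 with the median as scale, 22 and 59 with normexp, 1853 and 2405 with array weights and 1493 and 2130 without both arrays numbered 1. They were 0 and 0 with cyclic loess, probes detected on at least 1 array, the replicate block and no scaling (3303, 3667, 3175 and 2839 had an unadjusted p below 0.05 in limma), and 1 and 0 with the slide as a block and within slide 1. With 1 array left out they ranged from 0 to 1030 higher and from 0 to 1177 lower. Members without overlap were 2 with normexp (10.5% of all tested probes) and 8 without scaling (9.74%). Leaving out both arrays numbered 1 and omitting the scaling were chosen after seeing the data. Deviations of same-numbered arrays correlated at -0.04, 0.24 and -0.23 for replicates 1, 2 and 3. Only replicate 2 correlated best with its own number. With 3 arrays per age these values cannot decide whether replicate numbers pair the samples.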
